A study of Mus musculus with 16 samples.

Results

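Among 50600 genes counted in mouse footpad epidermis, 10 were followed here. They were 5 guanylate-binding proteins (Gbp2, Gbp3, Gbp4, Gbp5 and Gbp7), 4 immunity-related GTPases (Irgm1, Irgm2, Igtp and Iigp1) and the transcription factor Irf1. They were chosen by gene symbol, each symbol had 1 row in the count table, and all 10 reached the minimum of 10 counts over the libraries that admitted 22155 genes to the tests. The 16 libraries came from epidermal cells of female C57/B6J mice in 4 groups of 4. Mice aged 5 wk were placed for 3 wk on a purified diet poor in ligands of the aryl hydrocarbon receptor (the AhR-poor diet, SYNTH in the labels) or on that diet with 200 ppm indole-3-carbinol, a precursor of AhR ligands (the I3C diet). The footpad was then injected with 50 µl of phosphate-buffered saline (PBS, the vehicle) or with 50 µg of papain, a plant protease used as an allergen, in the same volume, and epidermal cells were taken after 6 hr. The AhR-poor and I3C diets carried no other difference in the labels, and no gene was deleted in any group. Mice on the same diet shared a cage, so diet and cage cannot be told apart.

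Interferon-gamma binds a receptor made of the Ifngr1 and Ifngr2 chains, and the kinases Jak1 and Jak2 carry its signal onward. Irf1, a factor with a GAS element in its promoter, is induced within a short time, and Irf1 and other factors of its family bind ISRE elements in front of later genes. Guanylate-binding proteins and immunity-related GTPases are among the most inducible of these later genes in the mouse, and act inside the cell on the membranes around bacteria and parasites and on the bacteria themselves. Many cell types make them, keratinocytes and macrophages among them, and type I interferons, whose signal includes Stat2 and Irf9, induce many of them too.

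RefSeq promoter sequences for GRCm38.p6 were matched to 8 of the 10 genes. The 250 bases before each RefSeq start were searched for an ISRE core and for a GAS core. The ISRE core was searched as GAAANNGAAA on either strand, which reads TTTCNNTTTC on the other, and the GAS core as TTCNNNGAA, which reads the same on both. An ISRE core was present in all 7 GTPases with a sequence (Gbp2, Gbp3, Gbp5, Gbp7, Irgm1, Irgm2 and Igtp), and Irf1 had none in its windows. Among all 27025 genes with a promoter sequence, 3.46% held an ISRE core. A GAS core was present in Irf1 and in 4 of the 7 GTPases (Gbp5, Gbp7, Irgm2 and Igtp), and in 8.13% of all genes. Both cores were present in those 4 GTPases, against 0.4% of all genes. The stretches below are shown because they hold these cores. The capitals mark the matches, and each stretch runs 5′ to 3′ on the strand of its gene.
Gbp2, chr3:142620594-142620623, plus strand: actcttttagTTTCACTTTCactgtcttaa
Gbp3, chr3:142559992-142560021, plus strand: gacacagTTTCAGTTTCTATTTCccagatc
Gbp5, chr3:142496759-142496788, plus strand: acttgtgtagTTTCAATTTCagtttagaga
Gbp7, chr3:142530210-142530312, plus strand: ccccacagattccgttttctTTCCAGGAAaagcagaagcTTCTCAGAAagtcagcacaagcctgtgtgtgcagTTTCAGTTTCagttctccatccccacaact
Irgm1, chr11:48871428-48871457, minus strand: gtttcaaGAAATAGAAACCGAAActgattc
Irgm2, chr11:58214882-58214942, plus strand: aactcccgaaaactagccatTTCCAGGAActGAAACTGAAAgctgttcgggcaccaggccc
Igtp, chr11:58199491-58199551, plus strand: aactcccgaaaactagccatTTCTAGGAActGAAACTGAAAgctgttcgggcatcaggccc
Irf1, chr11:53769904-53769952, plus strand: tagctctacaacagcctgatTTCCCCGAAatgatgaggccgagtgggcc

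Most ISRE cores lay close to the RefSeq start. In Gbp2, Gbp7 and Irgm2 the ISRE core ended at position -50, -44 and -55, counted from that start. In Gbp3 and Irgm1 it occurred in 2 overlapping copies, which end at position -30 and -15. Gbp5 was the exception, with its ISRE core at positions -165 to -156 and GAS cores on either side of it. In Irgm2 and Igtp, which are neighbours on the same strand, the printed stretches were identical at 59 of 61 bases (96.7%), with a GAS core followed by an ISRE core in each. For Gbp2, Gbp3, Gbp5 and Irgm1 the stretch was limited to 30 bases around the ISRE core, because the longer one touched annotated exons. The GAS cores of Gbp5 are therefore not in its line. The shortened stretches can still hold exonic bases. The RefSeq starts can differ from the gene bounds of GENCODE M21 given below. The printed stretches of Gbp5, Irgm1 and Irgm2 and part of that of Gbp2 lie inside those bounds. A match of letters is a description and does not show that a factor is bound.

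**Figure D1:**
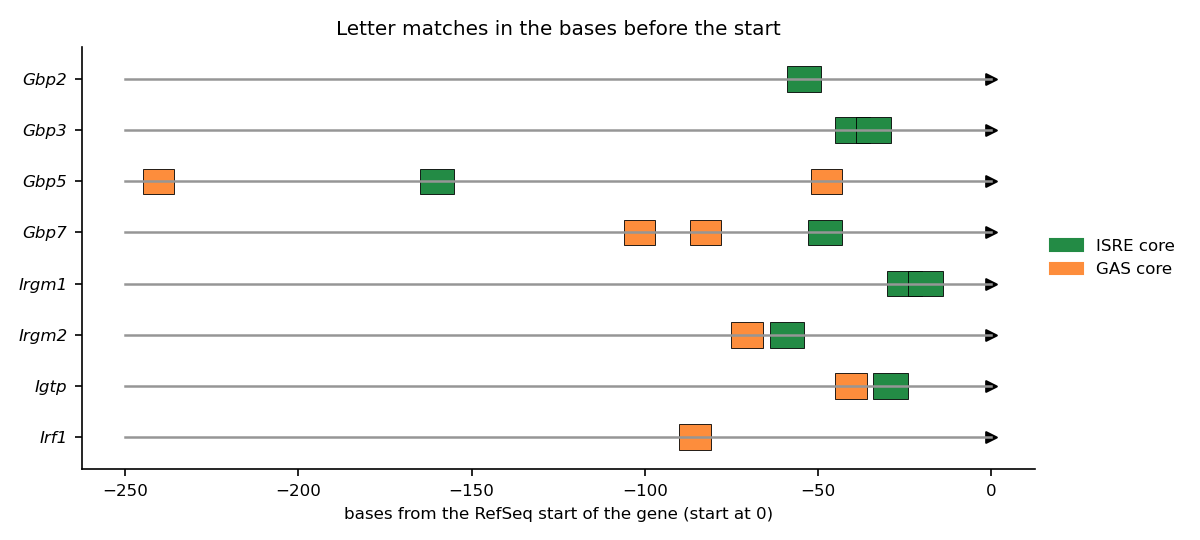
Position of the ISRE core (green) and GAS core (orange) in the 250 bases before the RefSeq start of each of the 8 genes with a promoter sequence, in bases from the start (arrowhead at 0). All 7 GTPases hold an ISRE core, and the only match in Irf1 is a GAS core at positions -90 to -82.

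In annotation of the files' build (GRCm38, GENCODE M21) Gbp2 (ENSMUSG00000028270, chr3:142620602-142638008), Gbp3 (ENSMUSG00000028268, chr3:142560026-142573209), Gbp5 (ENSMUSG00000105504, chr3:142493978-142522344) and Gbp7 (ENSMUSG00000040253, chr3:142530342-142550149) form a row on the plus strand of chromosome 3. Gbp4 (ENSMUSG00000079363, chr5:105115767-105139586, minus strand) is on chromosome 5. Irgm1 (ENSMUSG00000046879, chr11:48861968-48871683, minus strand), Irf1 (ENSMUSG00000018899, chr11:53770014-53778374), Igtp (ENSMUSG00000078853, chr11:58199556-58207591) and Irgm2 (ENSMUSG00000069874, chr11:58199618-58222782) are on chromosome 11, and Iigp1 (ENSMUSG00000054072, chr18:60376027-60392634) is on chromosome 18. Annotated exons are shared on the same strand by Igtp and Irgm2 (162 bases), by Gbp4 with Gbp8 and Gbp9 (121 bases) and by Gbp7 with Gm43802 (637 bases). Irf1 shares 135 bases with Gm17334 and Gbp2 shares 24 bases with Mir6381 on the opposite strand. How reads on these bases were counted is not given in the sources used here, so the division of reads within each pair is uncertain.

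The libraries held 22500821 to 51844375 counts, and levels are given as CPM, the counts of a gene relative to its TMM-scaled library size. A floor of 3 counts corresponded to 0.0569 to 0.130 CPM, and counting error also affects values above that floor. The labelled cell type was checked against markers. Basal keratinocyte markers summed to 20715 to 36310 CPM and suprabasal ones to 19082 to 44587 CPM, and none of the 14 passed the test in any comparison. Markers of other cell types were also present, and their levels differed between the groups as given beside the results. In bulk samples, fewer cells of a type and less RNA per cell cannot be told apart.

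The members differed widely in level. Per kilobase of exon, Irf1 was the highest in every group, with a mean of 46.1 ± 21.4 RPKM (CPM per kilobase of exon, SD, n = 4) in the vehicle group of the AhR-poor diet and 64.1 ± 27.6 RPKM in that of the I3C diet. Gbp2, the second in every group, was at 0.797 ± 0.480 and 0.585 ± 0.358 RPKM with vehicle on the AhR-poor and the I3C diet. In the vehicle group of the I3C diet its range overlapped that of the next, Irgm2 at 0.575 ± 0.207 RPKM. With vehicle on the AhR-poor diet the order after Gbp2 was Igtp, Irgm1, Irgm2, Gbp3, Gbp7, Gbp4, Iigp1 and Gbp5, and the ranges of all neighbours from Gbp2 down overlapped. With papain on the AhR-poor diet Gbp2 reached 11.1 ± 6.18 RPKM, separate from Igtp at 2.88 ± 0.998 RPKM, and its range overlapped that of Irf1 at 25.3 ± 4.95 RPKM. With papain on the I3C diet Irf1 (17.2 ± 1.41 RPKM), Gbp2 (3.69 ± 1.27 RPKM) and Igtp (1.49 ± 0.520 RPKM) were the 3 highest, with no overlap between Irf1 and Gbp2 or between Gbp2 and Igtp. Gbp5 was the lowest in 3 of the groups and Gbp4 in the AhR-poor group with papain.

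Papain was followed by higher levels of most of the GTPases on the AhR-poor diet, and Irf1 did not rise with them. Of the 10 members, 8 rose (adjusted p below 0.01 and log2 fold change above 1), against 6.04% of all genes, and 0 fell, against 2.42% of all genes. The 8 were Gbp2, Gbp3, Gbp5, Gbp7, Irgm1, Irgm2, Igtp and Iigp1. The groups of 4 did not overlap, with papain higher, for all 9 GTPases, against 17.0% of all genes. The median log2 fold change was 3.04 over the 9 GTPases and -0.00 over all genes tested.

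**Figure D2:**
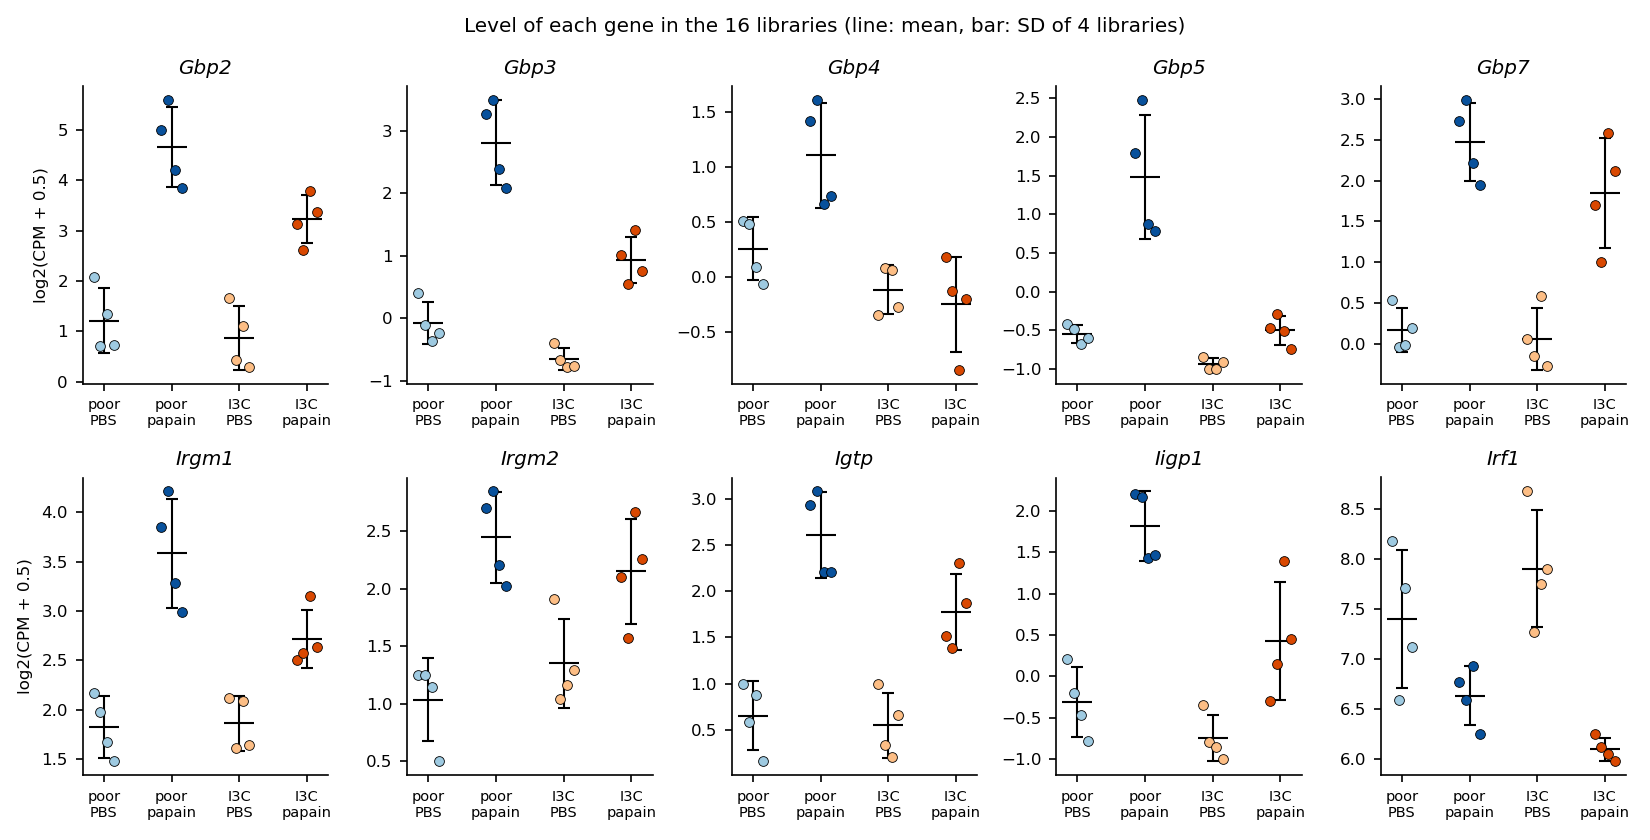
Level of each gene in each of the 16 libraries as log2(CPM + 0.5), by diet (poor, AhR-poor diet; I3C, I3C diet) and injection, with the mean and SD of 4 libraries and an axis of its own for each gene. The papain libraries sit above the vehicle libraries on the AhR-poor diet for all 9 GTPases, while Irf1 is lower with papain, without overlap on the I3C diet.

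Guanylate-binding proteins assemble into coats on bacteria and on the vacuoles of pathogens. Gbp2, a prenylated member that reaches such membranes, was at 3.71, 1.14, 2.03 and 1.15 CPM in the vehicle libraries on the AhR-poor diet and at 31.7, 48.3, 18.0 and 13.9 CPM in the papain libraries. Each papain library was above each vehicle library, and the mean of 27.99 ± 15.6 CPM (SD, n = 4) stood against 2.01 ± 1.21 CPM, a log2 fold change of 3.81 (SE 0.53, edgeR adjusted p = 8.2e-05). Gbp3 was at 0.817, 0.424, 0.272 and 0.349 CPM with vehicle and at 9.09, 10.8, 4.76 and 3.73 CPM with papain. It had the largest change of the members in this comparison, a log2 fold change of 3.94 (SE 0.41, edgeR adjusted p = 1.4e-06).

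Gbp5, which is linked to inflammasome assembly, was at 0.245, 0.212, 0.124 and 0.161 CPM with vehicle and at 2.95, 5.10, 1.34 and 1.22 CPM with papain on the AhR-poor diet. Its log2 fold change was 3.85 (SE 0.49, edgeR adjusted p = 8.2e-06), from vehicle libraries with 5 to 9 counts each. Gbp7 was at 0.477 to 0.954 CPM with vehicle and 3.34 to 7.45 CPM with papain, a log2 fold change of 3.04 (SE 0.41, edgeR adjusted p = 2.0e-05). Gbp4 was at 0.456 to 0.926 CPM with vehicle and 1.08 to 2.56 CPM with papain. Its groups did not overlap, and its log2 fold change of 1.31 (SE 0.41) missed the threshold (edgeR adjusted p = 0.0174). Gbp4 passed with DESeq2 (log2 fold change 1.33) and with only the 8 libraries compared in the fit (1.30).

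Immunity-related GTPases comprise the regulatory Irgm proteins and Igtp, which sit on the cell's own membranes, and effectors such as Iigp1, which load onto the vacuoles of parasites. All 4 rose on the AhR-poor diet, with a median log2 fold change of 2.18 beside 3.81 for the 5 guanylate-binding proteins. Irgm1, a regulator also linked to autophagy, was at 4.005, 3.44, 2.70 and 2.28 CPM with vehicle and at 13.9, 18.1, 9.22 and 7.45 CPM with papain. Its log2 fold change was 1.98 (SE 0.26, edgeR adjusted p = 1.9e-05). Irgm2 was at 0.912 to 1.88 CPM with vehicle and 3.56 to 6.70 CPM with papain (log2 fold change 1.68, SE 0.30), the smallest rise of the members called. Igtp, also known as Irgm3, was at 0.617 to 1.498 CPM with vehicle and 4.11 to 7.97 CPM with papain (log2 fold change 2.39, SE 0.33). Iigp1 was at 0.654, 0.371, 0.223 and 0.0805 CPM with vehicle and at 4.11, 3.98, 2.21 and 2.26 CPM with papain, a log2 fold change of 3.25 (SE 0.62, edgeR adjusted p = 0.00072). The lowest of its vehicle libraries held 3 counts, the floor.

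Irf1, an early factor that acts on many of the later genes, was at 290, 95.9, 209 and 139 CPM with vehicle on the AhR-poor diet. It was at 108.7, 95.8, 122 and 75.5 CPM with papain, and the groups overlapped. The log2 fold change was -0.87 (SE 0.33) and did not pass the test (edgeR adjusted p = 0.0563).

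On the I3C diet papain was also followed by higher levels of guanylate-binding proteins, and there Irf1 fell. Of the 10 members, 6 rose (Gbp2, Gbp3, Gbp5, Gbp7, Igtp and Iigp1), against 3.69% of all genes, and Irf1 fell, against 5.29% of all genes. The groups did not overlap, with papain higher, for 7 members, against 16.2% of all genes, and with papain lower for Irf1, against 17.3% of all genes. The median log2 fold change was 2.56 over the 9 GTPases and -0.04 over all genes tested. With Gbp5 set to the lower limit of its counting interval the median of the 9 was 1.60.

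Gbp2 was at 2.67, 0.841, 1.66 and 0.720 CPM in the vehicle libraries on the I3C diet and at 8.31, 5.68, 13.3 and 9.85 CPM in the papain libraries (log2 fold change 2.66, SE 0.53, edgeR adjusted p = 0.0013). Gbp3 was at 0.258, 0.127, 0.0816 and 0.0900 CPM with vehicle and at 1.51, 0.962, 2.17 and 1.19 CPM with papain (log2 fold change 3.36, SE 0.50, edgeR adjusted p = 3.4e-05). In both genes the lowest papain library was above the highest vehicle library. Gbp7 rose from 0.573 ± 0.303 to 3.40 ± 1.70 CPM (log2 fold change 2.56, SE 0.41). Gbp4 was at 0.287 to 0.561 CPM with vehicle and 0.0571 to 0.633 CPM with papain, and its groups overlapped (log2 fold change -0.21, SE 0.48, edgeR adjusted p = 0.782). Without papain library T114, which held 2 counts of Gbp4, that log2 fold change was 0.14.

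Gbp5 was near the limit of detection on the I3C diet. The 4 vehicle libraries held 2, 0, 0 and 1 counts and the 4 papain libraries 9, 10, 7 and 4 counts. The summed counts of 30 and 3 gave a ratio of 9.77 with a 95% exact counting interval of 3.04 to 50.04, which covers counting error only. It passed the test in the fit of all libraries (edgeR adjusted p = 0.0091), and it lost the call in 11 of 16 fits made without a single library, with adjusted p-values up to 0.0293 over all alternatives.

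Among the immunity-related GTPases on the I3C diet, Igtp and Iigp1 rose. Igtp was at 1.49, 0.765, 0.653 and 1.08 CPM with vehicle and at 2.36, 2.12, 4.45 and 3.16 CPM with papain (log2 fold change 1.60, SE 0.33, edgeR adjusted p = 0.00084). Iigp1 was at 0.287, 0.0765, 0.0544 and 0 CPM with vehicle and at 0.317, 0.609, 2.14 and 0.870 CPM with papain. Its groups were adjacent without overlap, and its log2 fold change of 3.19 (SE 0.77, edgeR adjusted p = 0.0037) came from vehicle libraries with 0 to 10 counts. The call of Iigp1 was lost without vehicle library T109, T110 or T111 and without papain library T114, where the log2 fold change was 2.48, and the adjusted p-values over all alternatives reached 0.0141. Irgm1 was at 2.55 to 3.85 CPM with vehicle and 5.16 to 8.36 CPM with papain, and its log2 fold change of 0.95 (SE 0.26, edgeR adjusted p = 0.0084) was below the fold threshold. Irgm2 had the same log2 fold change of 0.95 (SE 0.30, edgeR adjusted p = 0.0169), and its groups overlapped. Without vehicle library T108 both Irgm1 and Irgm2 passed, and 9 members were called.

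Irf1 fell on the I3C diet. It was at 410, 154, 216 and 239 CPM in the vehicle libraries and at 75.5, 69.3, 65.7 and 62.5 CPM in the papain libraries. The groups did not overlap, and the 4 papain libraries lay within a 1.21-fold range. The log2 fold change was -1.90 (SE 0.34, edgeR adjusted p = 0.00051), and it was between -2.08 and -1.57 in all 25 alternatives, with the call kept in each. The exact two-sided permutation test of 4 libraries against 4 gave p = 0.0286 for each pair of groups that did not overlap, which is the smallest p it can give.

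**Figure D3:**
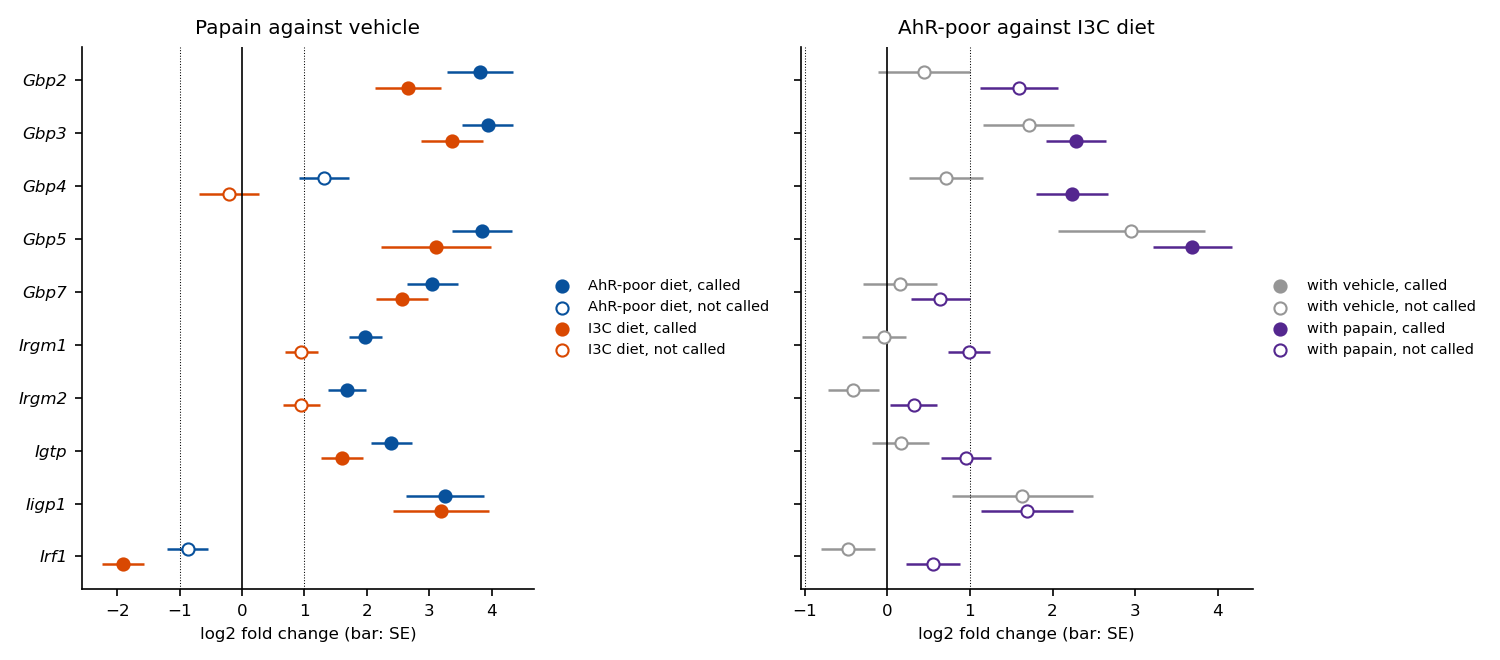
Log2 fold change of each gene with its SE for papain against vehicle (left) and for the diets, AhR-poor minus I3C (right). Filled points passed the test and the fold threshold (dotted lines at 1 and -1). Irf1 is to the left of 0 for papain on both diets, and on the right Gbp3, Gbp4 and Gbp5 are filled with papain while no gene is filled with vehicle.

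With vehicle alone no member passed the test between the diets. In edgeR 0 of the 10 members passed, against 1.59% of all genes called higher on the AhR-poor diet, and DESeq2 also called 0. The median log2 fold change of the 9 GTPases was 0.45, beside -0.01 over all genes tested. The groups did not overlap, with the AhR-poor diet higher, for 2 members (Gbp3 and Gbp5), against 6.45% of all genes. Gbp3 was at 0.272 to 0.817 CPM on the AhR-poor diet and 0.0816 to 0.258 CPM on the I3C diet (log2 fold change 1.71, SE 0.55, edgeR adjusted p = 0.127). Gbp5 had 28 counts in the 4 vehicle libraries on the AhR-poor diet and 3 on the I3C diet, a ratio of 8.84 with a 95% exact counting interval of 2.73 to 45.4 (edgeR adjusted p = 0.0926). Irgm1 was at 3.11 ± 0.769 CPM on the AhR-poor diet and 3.19 ± 0.706 CPM on the I3C diet (log2 fold change -0.04, SE 0.27). Irf1 was at 183 ± 85.2 CPM on the AhR-poor diet and 255 ± 110 CPM on the I3C diet, with overlap (log2 fold change -0.47, SE 0.32).

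After papain the mean of all 10 members was higher on the AhR-poor diet, and 3 guanylate-binding proteins passed the test. Gbp3, Gbp4 and Gbp5 were higher on the AhR-poor diet, against 7.15% of all genes. The groups did not overlap for 5 members (Gbp2, Gbp3, Gbp4, Gbp5 and Iigp1), against 12.5% of all genes. The median log2 fold change of the 9 GTPases was 1.60, beside 0.01 over all genes tested.

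Gbp5 differed most between the diets after papain. Its lowest library on the AhR-poor diet (1.22 CPM) was above its highest on the I3C diet (0.321 CPM), and the log2 fold change was 3.69 (SE 0.48, edgeR adjusted p = 2.6e-05). Gbp3 was at 3.73 to 10.8 CPM and, on the I3C diet, 0.962 to 2.17 CPM (log2 fold change 2.29, SE 0.36, edgeR adjusted p = 0.00021). Gbp4 was at 1.08 to 2.56 CPM and 0.0571 to 0.633 CPM (log2 fold change 2.23, SE 0.43, edgeR adjusted p = 0.0011), and its call was lost with only the 8 papain libraries in the fit (adjusted p = 0.01003). Gbp2 (log2 fold change 1.60, SE 0.47, edgeR adjusted p = 0.0277) and Iigp1 (1.69, SE 0.56, edgeR adjusted p = 0.0418) did not overlap between the diets and missed the threshold. Gbp7, the neighbour of Gbp5 and Gbp3, was at 3.34 to 7.45 CPM on the AhR-poor and 1.51 to 5.51 CPM on the I3C diet, with overlap (log2 fold change 0.64, SE 0.36, edgeR adjusted p = 0.237).

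Of the 4 immunity-related GTPases 0 passed between the diets after papain in edgeR or DESeq2, against 7.15% of all genes called higher in edgeR. Irgm1 missed by its fold alone in DESeq2 (log2 fold change 0.99, DESeq2 adjusted p = 0.0012), and it was called with library size only (1.10) and without papain library T107 (1.09), T112 (1.16) or T114 (1.17). The median log2 fold change of the 4 was 0.97, beside 2.23 for the guanylate-binding proteins. Irgm1 (0.98, SE 0.25, edgeR adjusted p = 0.0103), Igtp (0.96, SE 0.30, edgeR adjusted p = 0.0326) and Irgm2 (0.32, SE 0.29, edgeR adjusted p = 0.493) overlapped between the diets. Irf1 was at 75.5 to 122 CPM on the AhR-poor and 62.5 to 75.5 CPM on the I3C diet, where the highest library on the I3C diet exceeded the lowest on the AhR-poor diet by a small margin (log2 fold change 0.56, SE 0.33, edgeR adjusted p = 0.275). Without papain library T114 of the I3C diet 5 members were called, with Irgm1 and Iigp1 added (log2 fold changes 1.17 and 2.40).

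Whether the papain response differed between the diets was tested as an interaction. In edgeR 0 of the 10 members passed, against 0.0181% of all genes, and DESeq2 also called 0. The smallest p-values of the members were those of Gbp4 (difference of log2 fold changes 1.52, SE 0.63, edgeR adjusted p = 0.306), Irgm1 (1.02, SE 0.37, edgeR adjusted p = 0.254) and Irf1 (1.03, SE 0.46, edgeR adjusted p = 0.355). The difference was above 0 for all 10 members, with a median of 0.74 over the 9 GTPases and 0.03 over all genes tested. The comparisons share groups with one another, so the members' values in each are given side by side and are not independent.

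In each group a single library was the highest in most of the GTPases, and the lowest library varied more. Among the vehicle libraries on the AhR-poor diet T100 was the highest in 9 of the 9 GTPases, and it also had the highest Irf1 (290 CPM). Among the vehicle libraries on the I3C diet T108 was the highest in 7 of the 9 and had the highest Irf1 (410 CPM). Among the papain libraries T105 was the highest in 8 of the 9 on the AhR-poor diet and T114 in 7 of the 9 on the I3C diet, and neither had the highest Irf1. The GTPases summed to 110.98 CPM in T105, 83.2 in T104, 49.0 in T107 and 40.7 in T112, and to 42.0 in T114 and 19.5 to 29.4 in the other papain libraries on the I3C diet. Without T105 the AhR-poor diet still had 8 members called after papain and the diet comparison with papain still had 3.

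**Figure D4:**
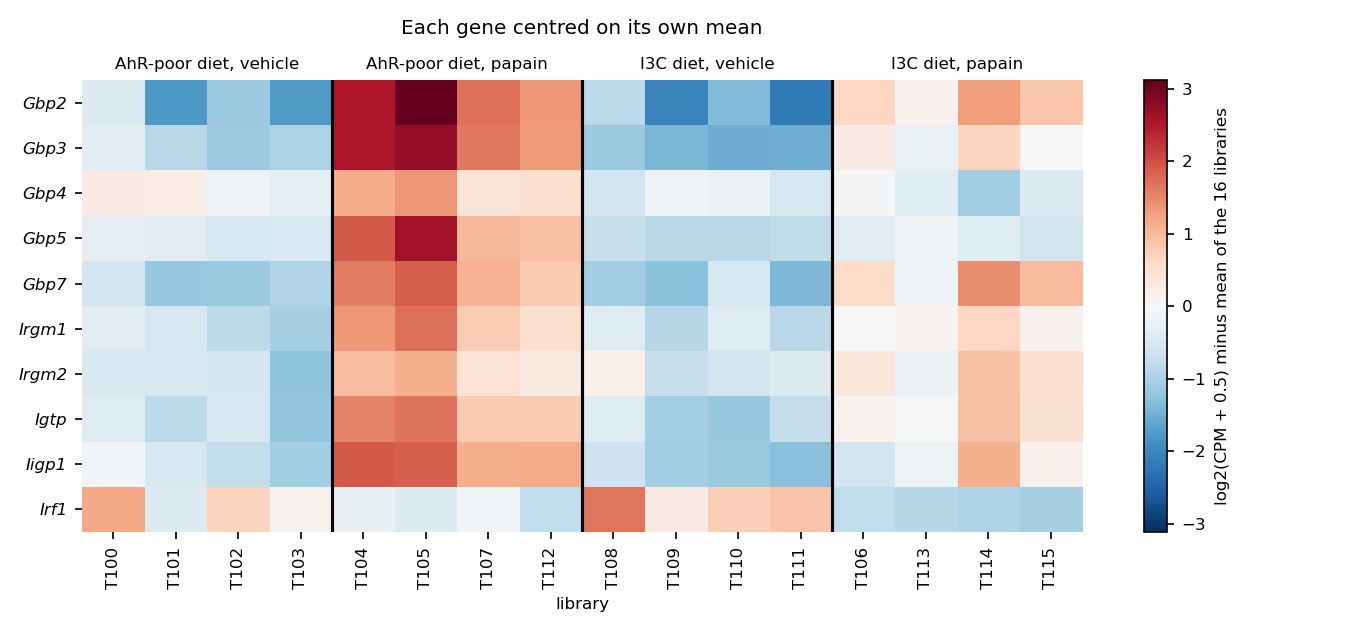
Deviation of each gene from its own mean over the 16 libraries, in log2(CPM + 0.5), for 10 genes (rows) and 16 libraries (columns, by group). The GTPases are highest in T104 and T105 among the papain libraries on the AhR-poor diet, and Irf1 is highest in the vehicle libraries T108 and T100.

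Markers of cells that also make these GTPases moved with papain and with diet. On the AhR-poor diet 8 of the 8 neutrophil markers tested, 7 of 10 monocyte and macrophage, 9 of 10 fibroblast, 2 of 10 endothelial, 3 of 6 mast cell, 1 of 7 Langerhans cell, 1 of 11 T cell and 1 of 9 natural killer and innate lymphoid markers rose with papain. Of all genes 6.04% rose in that comparison, so a single call in a list is no clear excess. On the I3C diet 3 of 8 neutrophil, 1 of 10 endothelial and 0 of 10 monocyte and macrophage markers rose. There 1 of 10 fibroblast markers fell. Of all genes 3.69% rose and 5.29% fell on the I3C diet. Neutrophil markers summed to 7.06 to 7.94 CPM with vehicle and 94.4 to 626 CPM with papain on the AhR-poor diet, and to 2.50 to 4.29 and 48.4 to 76.9 CPM on the I3C diet. Monocyte and macrophage markers summed to 49.5 to 59.5 and 120 to 570 CPM on the AhR-poor diet, and to 19.6 to 28.6 and 11.3 to 39.2 CPM on the I3C diet. On the I3C diet the monocyte and macrophage ranges overlapped and the neutrophil ranges did not. Among the papain libraries on the AhR-poor diet the sum of monocyte and macrophage markers was highest in T105 (570 CPM) and lowest in T112 (120 CPM). These libraries also had the highest and the lowest sum of the GTPases. The sums of neutrophil, fibroblast, mast cell, and natural killer and innate lymphoid markers were likewise highest in T105 and lowest in T112. The sums of the other marker lists did not show both. The sum of monocyte and macrophage markers was 282 CPM in T104 and 302 CPM in T107, with GTPase sums of 83.2 and 49.0 CPM. On the I3C diet T106, T113, T114 and T115 had 39.2, 23.6, 16.9 and 11.3 CPM of these markers. Their neutrophil markers summed to 53.5, 76.9, 70.9 and 48.4 CPM, and their GTPases to 25.1, 19.5, 42.0 and 29.4 CPM. No marker was at 0 in all libraries, and the part of these cells in the result was not tested.

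The marker lists also differed between the diets. With vehicle, 10 of 10 endothelial, 9 of 10 fibroblast, 2 of 10 monocyte and macrophage, 1 of 7 Langerhans cell and 1 of 6 mast cell markers had higher levels on the AhR-poor diet. With papain, 10 of 10 endothelial, 9 of 10 fibroblast, 9 of 10 monocyte and macrophage, 5 of 8 neutrophil, 5 of 6 mast cell, 3 of 7 Langerhans cell, 2 of 11 T cell and 1 of 9 natural killer and innate lymphoid markers were higher on that diet. Fibroblast markers summed to 114.7 to 200.3 CPM on the AhR-poor and 20.3 to 24.9 CPM on the I3C diet with vehicle. With papain they summed to 295 to 714 and 12.0 to 25.9 CPM. The part of these cells in the difference of Gbp3, Gbp4 and Gbp5 between the diets was not tested.

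Interferon-inducible GTPases outside the 10 members rose as well. Of 18 other interferon-inducible GTPases 15 were tested. With papain 10 rose on the AhR-poor diet, against 6.04% of all genes, and 2 on the I3C diet, against 3.69%. After papain 7 were higher on the AhR-poor diet, against 7.15% of all genes. Ifi47, an immunity-related GTPase, rose from 0.300 to 4.94 CPM on the AhR-poor diet (log2 fold change 4.03, SE 0.62). On the I3C diet it was at 0.0348 and 0.279 CPM and missed the threshold (log2 fold change 2.89, edgeR adjusted p = 0.0462). The vehicle libraries there held at most 3 counts of it each. Gbp9, on chromosome 5 beside Gbp4, rose from 1.05 to 6.19 CPM on the AhR-poor diet (log2 fold change 2.56, SE 0.42). It was at 0.325 and 0.694 CPM on the I3C diet. Mx1 and Mx2, antiviral dynamin-like GTPases, were the 2 that rose on the I3C diet (log2 fold changes 2.89 and 1.84), and they rose on the AhR-poor diet as well (3.50 and 2.47).

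Transcripts of interferon-gamma and interferon-beta were scarce. Ifng, the gene of interferon-gamma, had 38 counts in all 16 libraries. With vehicle it had 1, 5, 6 and 2 counts in T100, T101, T102 and T103 of the AhR-poor diet. With papain on that diet it had 4, 9, 0 and 4 counts in T104, T105, T107 and T112. On the I3C diet it had 1, 3, 0 and 2 counts with vehicle and 0, 1, 0 and 0 with papain. Its papain log2 fold change was 0.19 (edgeR adjusted p = 0.876) on the AhR-poor diet and -2.14 (edgeR adjusted p = 0.197) on the I3C diet. Ifnb1, the gene of interferon-beta, also had 38 counts, of which 35 were in T105 and 3 in T104. Of 10 ligand genes tested 4 rose with papain on the AhR-poor diet and 1 on the I3C diet. Tnf, a cytokine that acts with interferon-gamma, rose on both diets (log2 fold changes 1.61 and 1.25), and Il18, which elicits interferon-gamma from lymphocytes, rose on the AhR-poor diet (1.24, SE 0.27) and was at 0.73 (SE 0.29, edgeR adjusted p = 0.0599) on the I3C diet.

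Several receptor and signalling genes rose with papain on both diets. Ifngr1, the ligand-binding chain, rose from 33.9 to 93.3 CPM on the AhR-poor and from 34.9 to 104.1 CPM on the I3C diet (log2 fold changes 1.46 and 1.58), and Ifngr2 was at 0.40 and 0.17. Of the 10 receptor genes 3 rose on the AhR-poor and 2 on the I3C diet, against 6.04% and 3.69% of all genes. Il18r1, a chain of the receptor for Il18, rose on both (2.14 and 2.75). Il10rb, shared by the receptors for interleukin-10 and interferon-lambda, rose on the AhR-poor diet (1.44). It was at 0.53 (SE 0.16, edgeR adjusted p = 0.0153) on the I3C diet. The others named were at 0.25 and -0.05 (Il12rb2) and at 0.12 and 0.46 (Ifnlr1). Of 14 signalling and factor genes 2 rose on each diet, against the same shares of all genes. Stat2 rose from 31.5 to 78.8 CPM on the AhR-poor and from 31.4 to 98.1 CPM on the I3C diet (log2 fold changes 1.32 and 1.64). After papain the difference of Stat2 between the diets was -0.32 (SE 0.17, edgeR adjusted p = 0.21). Irf9, its partner, rose on the I3C diet (1.04). On the AhR-poor diet it missed by its fold alone (0.95, edgeR adjusted p = 4.4e-06). Irf7, a factor of type I interferon induction, rose on the AhR-poor diet (2.25, SE 0.48) and was at 0.32 (SE 0.46) on the I3C diet. The kinases Jak1 (0.15 and 0.57), Jak2 (0.49 and 0.55) and Tyk2 (-0.16 and -0.02) and the factor Irf5 (-0.27 and -0.51) stayed within the fold threshold. The edgeR adjusted p was below 0.01 for Jak2 on both diets and for Jak1 and Irf5 on the I3C diet.

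**Figure D5:**
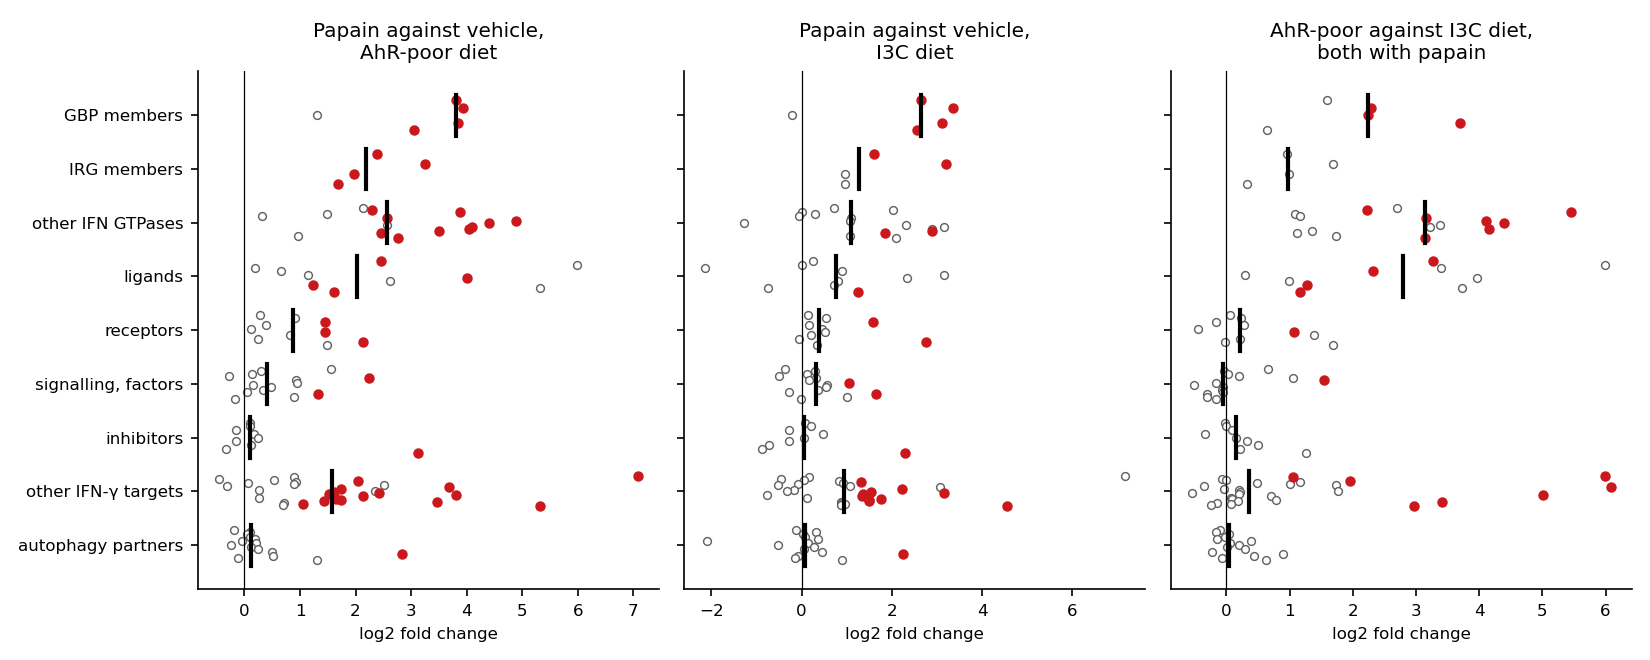
Log2 fold change of each tested gene (points) by list, for papain on the AhR-poor diet, papain on the I3C diet, and the diets after papain (AhR-poor minus I3C), where red points passed the test and the fold threshold and the black bar is the median of the list. The guanylate-binding proteins have medians of 3.81, 2.66 and 2.23, and the signalling genes and factors 0.41, 0.31 and -0.05.

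Of 9 inhibitor genes 1 rose on each diet, Usp18, a brake on the type I interferon receptor (log2 fold changes 3.12 and 2.29). Of all genes 6.04% rose on the AhR-poor and 3.69% on the I3C diet. Socs3, an inhibitor of cytokine receptors, was at -0.33 and -0.89, and Ptpn2 (0.25 and 0.05), Ptpn11 (0.18 and 0.46) and Pias1 (-0.15 and -0.27) stayed within the fold threshold, with an edgeR adjusted p of 8.5e-05 for Ptpn11 on the I3C diet. Of 28 other targets of interferon-gamma 15 rose with papain on the AhR-poor diet and 10 on the I3C diet. After papain 7 were higher on the AhR-poor diet, against 7.15% of all genes. Zbp1, a sensor of nucleic acids, rose on both, by 5.33 on the log2 scale with the AhR-poor diet and to a mean of 1.53 CPM on the I3C diet from vehicle libraries with at most 3 counts each. On the AhR-poor diet Acod1, which makes itaconate, and Cybb, a subunit of the phagocyte oxidase, rose as well (7.09 and 3.68). With papain on the I3C diet Acod1 was at 3.36 CPM (edgeR adjusted p = 0.0142) and Cybb at 0.137 CPM (edgeR adjusted p = 0.115), from vehicle libraries with at most 2 counts and 1 count each, and neither passed. Ciita, the activator of MHC class II genes, was at 0.07 on the AhR-poor and 0.92 on the I3C diet, and Casp1, an inflammatory caspase, at -0.46 and -0.45. Of 15 autophagy partners of the GTPases 1 rose, which is near the share of all genes on the AhR-poor diet. It was Rnf213, a ubiquitin ligase (2.83 and 2.25). Sqstm1 (0.51 and -0.09), Map1lc3b (0.49 and 0.45), Atg12 (-0.19 and -0.13) and Gabarapl1 (-0.24 and -0.51) stayed within the fold threshold, some of them with an adjusted p below 0.01. No gene of these lists was called lower with papain on either diet.

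The genes most like the members were sought among 13018 genes by the root mean square difference of centred log2(CPM + 0.5) over the 16 libraries. To the mean profile of the guanylate-binding proteins the closest were Usp18 (0.317), Mx1 (0.318) and Mirt1 (0.326), and the members themselves were at 0.320 (Gbp3) to 0.765 (Gbp4). To the mean profile of the immunity-related GTPases the closest were Parp14 (0.245), Tspan4 (0.277) and Psmb8 (0.278), and the members were at 0.144 (Igtp) to 0.312 (Iigp1). To Irf1 the closest were Btg2 (0.307), Klf2 (0.321) and Lag3 (0.323). Btg2 and Klf2, an antiproliferative gene and a transcription factor, had a papain log2 fold change of -1.25 and -1.73 in mice of the I3C diet and of -0.74 and -0.42 in those of the AhR-poor diet, beside -1.90 and -0.87 for Irf1.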

How the data were processed

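Poly(A) RNA of epidermal cells from 16 mice was sequenced with a stranded kit, and the authors deposited raw counts of reads per gene and library, with reads aligned by STAR to mm10. The counting tool, annotation release and strand setting are not given in the sources used here. Of 50600 identifiers 50376 were matched to GENCODE M21 symbols. Groups were taken from the labels. Genes below 10 counts over all libraries were dropped, TMM factors were computed, 1 mean per group was fitted over all 16 libraries, and contrasts were tested with edgeR 4.0.16 (robust quasi-likelihood F test, R 4.3.3). A call was a Benjamini-Hochberg adjusted p below 0.01 with a log2 fold change above 1 or below -1, and SE was derived from the F statistic. Single genes were compared by exact permutation on log2(CPM + 0.5). RPKM was CPM per kilobase of merged exons. The fit was tested on simulated data. Alternatives included DESeq2 1.42.0, other scalings and filters, and leaving out each library. The members and lists were chosen with earlier results of these data known. In each list of other genes those named were the 3 largest and 2 smallest log2 fold changes with papain on the AhR-poor diet, among genes with at least 1 CPM on average, and in the pathway from Ifng to Irf9 also 8 genes whatever their values, with 1 gene not reported here. The sequencing unit of a library is not in the labels, and was no term in the fit. Mice were not randomized and cages were kept to a single diet, so diet and cage cannot be told apart. The edgeR p-values set the difference of group means against the spread between libraries of a group.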

Additional observations from a re-analysis of the deposited data

How the results depend on the processing

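No paired analysis was possible because the groups share no replicate numbers. Over the alternatives 1169 of 1220 values of single members kept their direction and their side of the threshold, 16 lost a call, 16 gained one and 19 changed sign. With at least 10 counts required in every library 6 members could be fitted, and of these 5 were called with papain on the AhR-poor diet (median log2 fold change 2.21), 4 with papain on the I3C diet (median 1.26) and 0 between the diets with papain, since Gbp3, Gbp4 and Gbp5 were not among them. At an adjusted p below 0.05 the diets differed with papain in 5 members.

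Leaving out each library in turn gave 8 to 9 members called with papain on the AhR-poor diet, 5 to 9 with papain on the I3C diet (5 without T109, T110, T111 or T114 and 9 without T108), 3 to 5 between the diets with papain (5 without T114), and 0 with vehicle and for the interaction. Values that changed sign were not called. With papain on the I3C diet Gbp4 ranged from -0.62 to 0.14. Between the diets with vehicle Gbp2 ranged from -0.024 to 0.89, Gbp7 from -0.10 to 0.57, Irgm1 from -0.19 to 0.074 and Igtp from -0.011 to 0.43, and with library size only Irgm1 was at 0.0154. For the interaction Gbp5 ranged from -0.21 to 1.15 and Iigp1 from -1.08 to 0.77. The median of the 10 members between the diets with vehicle ranged from -0.02 to 0.54. The cause of these changes was not tested. Library size only moved the median of all genes between the diets with papain to 0.11, and the members' median there was 1.40, which is 1.29 with TMM. Low counts limit Gbp3, Gbp5 and Iigp1 with vehicle on the I3C diet.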
